A study of Mus musculus with 4 samples.

Results

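Heat shock and immediate early stress genes were followed through the cell types of 2 tumour T cell libraries. The set held 31 named genes of the 32285 in the matrices, all of them present in both RNA libraries. It comprised 13 heat shock genes, 5 Fos and Jun genes, 8 other early genes with the feedback genes they induce, and 5 stress regulators. The Tc9 library came from WT B6 mice (Thy1.2+) with a chimeric tumour that had received Thy1.1+ Pmel-1 Tc9 cells with adjuvant. The Tc1 library came from the same kind of mice given Thy1.1+ Pmel-1 Tc1 cells with adjuvant. Pmel-1 cells are CD8 T cells with a transgenic receptor for a melanocyte antigen, and Tc9 and Tc1 name their polarisation towards interleukin-9 and interferon-gamma. The tumours of 3 mice per group were pooled on day 30, digested for 42 min at 37 °C, and sorted for CD4 T cells. Each pool gave 1 RNA library and 1 T cell receptor library, so there was no replicate and no test. Intervals are 95% intervals that cover counting error only, and they treat the molecules of a cell as independent.

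Heat shock proteins are chaperones that hold, fold or release other proteins. Heat or misfolded protein frees the factor Hsf1, which binds paired GAA units and switches on the inducible members, while constitutive members serve normal folding. Fos and Jun proteins pair into the factor AP-1, and their genes respond within minutes to receptor signals in T cells as well as to stress. Both gene groups are also known to respond to the warm enzymatic digestion of tissue, a step that both pools went through and whose part in the values was not tested.

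The promoters of 6 members are given for these reasons. Hspa1a and Hspa1b had large ratios in effector CD4, Foxp3 and CD8 cells, and Hspe1 and Hsph1 hold runs of heat shock units. Dusp1 differed in direction between cell types, and Fos stands for the Fos and Jun genes. RefSeq promoter windows on build GRCm38.p6, which run from 250 bases before to 50 bases after a start, were found for 25 of the 31 members. A heat shock element of 2 units was searched as GAANNTTC or TTCNNGAA, each of which reads the same on both strands. It occurred in 10 of the 16 windows of heat shock genes (62.5%) and in 15.1% of all 32851 windows. Those 10 windows belong to 9 of the 10 heat shock genes with a window. They are not independent, since 2 windows of Hsph1 overlap and others overlap or are near copies, as given below. Hspa8, Hsp90aa1 and Hsp90ab1 had no window. A run of 3 units (GAANNTTCNNGAA or TTCNNGAANNTTC), which contains the 2-unit form, occurred in Hspd1, Hspe1 and Hsph1 and in 0.603% of all windows. The windows of Hspa1a (chr17:34972107-34972406, minus strand) and Hspa1b (chr17:34959189-34959488, minus strand) were identical at 296 of 300 bases, and each held 1 element 104 bases before the start. The windows of Hspd1 and Hspe1 overlap by 285 bases on opposite strands, so the same elements lie in both. The Hspe1 window (chr1:55087898-55088197, plus strand) and that of Hsph1 (chr5:149636266-149636565, minus strand) are shown with these elements in capitals.
Hspa1a: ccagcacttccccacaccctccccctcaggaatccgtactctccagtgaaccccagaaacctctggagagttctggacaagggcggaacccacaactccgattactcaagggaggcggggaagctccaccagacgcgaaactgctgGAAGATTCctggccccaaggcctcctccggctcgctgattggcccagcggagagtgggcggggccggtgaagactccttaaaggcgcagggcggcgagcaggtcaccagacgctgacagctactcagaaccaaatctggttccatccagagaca
Hspa1b: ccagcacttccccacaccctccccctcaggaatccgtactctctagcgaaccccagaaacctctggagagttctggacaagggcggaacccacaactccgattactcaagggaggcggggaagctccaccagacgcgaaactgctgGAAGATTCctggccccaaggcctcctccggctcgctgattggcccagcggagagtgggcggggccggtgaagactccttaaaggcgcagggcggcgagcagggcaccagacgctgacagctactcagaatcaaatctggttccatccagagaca
Hspe1: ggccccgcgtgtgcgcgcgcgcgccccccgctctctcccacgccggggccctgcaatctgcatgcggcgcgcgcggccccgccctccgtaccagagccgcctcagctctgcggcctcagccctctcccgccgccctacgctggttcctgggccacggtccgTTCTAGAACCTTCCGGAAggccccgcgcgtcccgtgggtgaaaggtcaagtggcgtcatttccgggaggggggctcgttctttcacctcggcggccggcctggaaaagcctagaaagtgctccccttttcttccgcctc
Hsph1: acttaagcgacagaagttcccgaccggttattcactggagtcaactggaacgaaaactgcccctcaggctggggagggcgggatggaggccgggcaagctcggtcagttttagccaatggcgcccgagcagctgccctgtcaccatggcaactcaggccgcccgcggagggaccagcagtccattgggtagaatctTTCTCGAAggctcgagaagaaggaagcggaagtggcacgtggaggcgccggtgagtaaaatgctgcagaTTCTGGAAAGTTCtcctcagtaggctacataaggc

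No 2-unit heat shock element was found in the windows of the 7 early and feedback genes that had one, or of the 3 stress regulators, and among the 5 Fos and Jun genes Jun held 1. The cyclic AMP response element TGACGTCA, the same on both strands, occurred in Btg2, Dusp1 and Ppp1r15a and in 1.79% of all windows. The AP-1 site TGACTCA, or TGAGTCA on the other strand, occurred in Bag3 and Hspa5 and in 5.20% of all windows. Dusp1 (chr17:26508423-26508722, minus strand) is shown with its cyclic AMP element in capitals. Fos (chr12:85473640-85473939, plus strand) is shown with its TATA box in capitals, searched as TATAAA or TTTATA and present in 13.6% of all windows. These matches describe letters, not binding.
Dusp1: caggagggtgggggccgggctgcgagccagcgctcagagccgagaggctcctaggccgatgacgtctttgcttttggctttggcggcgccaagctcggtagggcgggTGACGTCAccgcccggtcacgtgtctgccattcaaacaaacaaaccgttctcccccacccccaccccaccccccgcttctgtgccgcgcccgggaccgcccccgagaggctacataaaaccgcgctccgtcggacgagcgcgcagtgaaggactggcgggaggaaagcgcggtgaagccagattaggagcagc
Fos: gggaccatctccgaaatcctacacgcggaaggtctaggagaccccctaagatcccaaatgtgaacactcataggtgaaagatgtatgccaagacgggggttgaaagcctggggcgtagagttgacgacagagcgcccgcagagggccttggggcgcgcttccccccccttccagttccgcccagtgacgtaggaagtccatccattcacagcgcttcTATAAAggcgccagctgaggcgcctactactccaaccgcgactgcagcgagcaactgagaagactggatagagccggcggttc

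Cells were assigned to 8 gates by marker UMIs (unique molecular identifiers, each counting 1 end of 1 captured RNA molecule). Levels are CPM, the summed UMIs of a gene scaled to the total UMIs of the gate (counts per 1000000). The effector CD4 gate held 3493 Tc9 and 838 Tc1 barcodes, the Foxp3 CD4 gate 616 and 155, and the CD8 gate 454 and 2170. These 3 gates had at least 50 barcodes in each library and were compared. The naive-like CD4 gate held 11 Tc9 and 128 Tc1 barcodes, the NK gate 53 and 26, the macrophage gate 28 and 2013, the dendritic gate 21 and 96, and the melanoma gate 0 and 192. All 6 T cell markers were detected in every T cell gate, and Foxp3 stood at 490 CPM in the Tc9 and 335 CPM in the Tc1 Foxp3 gate. The T cell gates require T cell marker UMIs and the Foxp3 gate a Foxp3 UMI, so these values are no separate check of the gates. By the gate counts, CD8 and non-T cells were present although both pools were sorted for CD4 T cells.

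The libraries differed in ways that touch the results. The Tc9 library held 50713493 UMIs on 8449 barcodes and the Tc1 library 106053410 on 13406, and 148 barcode names occurred in both. A T cell receptor beta chain found in both libraries, of which there were 2, was carried by 232 of the 454 Tc9 and 46 of the 2170 Tc1 barcodes of the CD8 gate. T cell gates of the Tc1 library carried more RNA of other cells: the 10 macrophage markers, all detected in both libraries, summed to 17.2 CPM in Tc9 and 647 CPM in Tc1 effector CD4 cells. Class II genes summed to 103, 244 and 219 CPM in the Tc9 effector, Foxp3 and CD8 gates, against 3646, 7215 and 2175 CPM in the Tc1 gates. Gates were also made up of different Leiden clusters in the libraries. Of effector CD4 barcodes, clusters 1, 3 and 5 held 36.7%, 24.8% and 23.2% in Tc9 and 11.1%, 2.74% and 2.86% in Tc1, while cluster 6 held 1.75% in Tc9 and 64.2% in Tc1. Of CD8 barcodes, cluster 13 held 50.4% in Tc9 and 2.49% in Tc1, while clusters 8 and 9 held 0.66% and 0.22% in Tc9 and 45.1% and 20.8% in Tc1. Cluster 2 held most Foxp3 barcodes of both, 89.8% in Tc9 and 66.5% in Tc1. The CD8 gate carried Foxp3 at 97.8 CPM in Tc9 and 7.31 CPM in Tc1, and the Foxp3 cell markers summed to 1670 and 385 CPM there. The part of these differences in the ratios below was not tested. Haemoglobin UMIs were found in 4 Tc9 and 260 Tc1 effector CD4 barcodes. Barcodes without any UMI of the macrophage, melanoma, class II or red cell markers numbered 2991 in Tc9 and 56 in Tc1 for effector CD4 cells, 319 and 3 for Foxp3 cells, and 263 and 126 for CD8 cells.

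Summed over the 13 heat shock genes, levels were lower in Tc9 than in Tc1 in each of the 3 compared gates. Effector CD4 cells had 3395 CPM in Tc9 and 4750 CPM in Tc1, a log2 ratio of -0.48 (-0.51 to -0.46). Foxp3 cells had 3423 CPM in Tc9 and 5289 CPM in Tc1 (log2 ratio -0.63), and CD8 cells 4059 CPM in Tc9 and 5618 CPM in Tc1 (-0.47). Without the barcodes of the shared receptor the CD8 ratio was -0.58. The median gene of all genes at 10 CPM or more had a ratio of -0.17, -0.07 and -0.12 in the 3 gates. Relative to these medians the heat shock ratios were -0.31 in effector CD4, -0.56 in Foxp3 and -0.35 in CD8 cells. Restricted to the barcodes free of the other cells' markers, the ratio was -0.31 in effector CD4 and -0.30 in CD8 cells. The other gates with cells in both libraries had smaller numbers of barcodes: NK cells had 3645 CPM in Tc9 and 5702 CPM in Tc1, macrophages 2682 and 4882, dendritic cells 3228 and 4735, and naive-like CD4 cells 3116 and 4995.

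**Figure D1:**
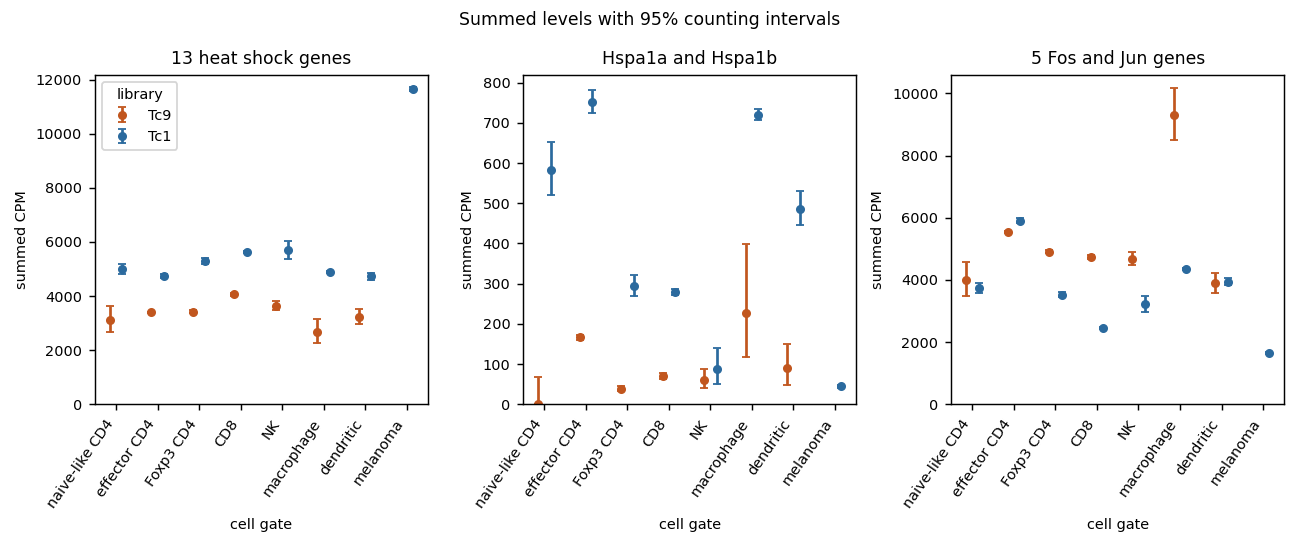
Summed CPM (vertical axes, linear from 0) of the 13 heat shock genes, of Hspa1a with Hspa1b, and of the 5 Fos and Jun genes in each cell gate, with Tc9 points left of Tc1 points and bars for 95% counting intervals. Heat shock sums sit lower in Tc9 in every gate with both libraries. Fos and Jun sums are higher in Tc9 in the Foxp3, CD8, NK and macrophage gates, while the intervals overlap in the naive-like CD4 and dendritic gates. The melanoma gate exists in Tc1 only, with 11654 CPM of heat shock and 1650 CPM of Fos and Jun RNA.

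Among heat shock genes at 10 CPM or more in a library of every compared gate, the inducible HSP70 genes Hspa1a and Hspa1b had the largest ratios. Hspa1a had 58.2 CPM in Tc9 and 309 CPM in Tc1 effector CD4 cells, 14.2 and 113 CPM in Foxp3 cells, and 29.7 and 124 CPM in CD8 cells. Hspa1b had 108 CPM in Tc9 and 444 CPM in Tc1 effector CD4 cells, 24.9 and 181 CPM in Foxp3 cells, and 39.8 and 156 CPM in CD8 cells. Both genes were thus lower in Tc9 in all 3 gates, and the intervals of the libraries did not overlap. Their summed log2 ratios were -2.18 in effector CD4 (-2.25 to -2.10), -2.91 in Foxp3 and -2.01 in CD8 cells. In the smaller NK gate the sum was 60.4 CPM in Tc9 (39.5 to 88.5) and 87.3 CPM in Tc1 (50.8 to 140), with overlapping intervals. The copies are nearly identical, so how reads were split between them is uncertain and their sum is the safer value. They made up 4.90% of the heat shock UMIs in Tc9 and 15.9% in Tc1 effector CD4 cells.

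With each barcode thinned to 2000 UMIs, Hspa1b was seen in 8.50% of Tc9 (7.58 to 9.48%) and 32.8% of Tc1 effector CD4 barcodes (29.5 to 36.2%). These are detection rates at this depth, not shares of cells that express the gene, and no cell type that lacks the gene was used here. The level expected from free RNA was 21.4 of 108 CPM in Tc9 and 16.6 of 444 CPM in Tc1 effector CD4 cells, by an estimate that is unsure for Tc9. In Foxp3 cells it was 21.4 of 24.9 CPM in Tc9 and 16.6 of 181 CPM in Tc1. The top twentieth of barcodes held 78.8% of the Hspa1b UMIs in Tc9 and 47.7% in Tc1 effector CD4 cells, and at most 58 and 68 UMIs came from 1 barcode. Tc1 macrophages held 319 CPM of Hspa1b, less than the 444 CPM of Tc1 effector CD4 cells. In barcodes free of the other cells' markers, the Hspa1a and Hspa1b ratios were -2.57 and -1.84 in effector CD4 and -1.43 and -1.42 in CD8 cells.

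Hspa8 and both HSP90 genes had smaller ratios than Hspa1a and Hspa1b in each compared gate. Hspa8, the constitutive HSP70, had 957 CPM in Tc9 and 1061 CPM in Tc1 effector CD4 cells, a log2 ratio of -0.15, and -0.61 in Foxp3 and -0.46 in CD8 cells. Hsp90ab1, the constitutive HSP90, had 1122 CPM in Tc9 and 1435 CPM in Tc1 effector CD4 cells (-0.35), 1263 and 2150 CPM in Foxp3 cells (-0.77), and 1661 and 2262 CPM in CD8 cells (-0.45). Hsp90aa1, the inducible HSP90, had ratios of -0.29, -0.42 and -0.37 in the 3 gates. Without Hspa8 and Hsp90ab1 the summed heat shock ratio was -0.78 in effector CD4, -0.49 in Foxp3 and -0.50 in CD8 cells. With total UMIs replaced by TMM scaling, the effector CD4 ratio of Hspa8 was 0.15, the opposite sign. TMM scaling takes a log2 shift of -0.30 out of every effector CD4 ratio, so the Hsp90aa1 ratio of -0.29 did not keep its sign either.

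Among co-chaperones, Hsph1, which recharges HSP70, had 71.7 CPM in Tc9 and 116 CPM in Tc1 effector CD4 cells (-0.69), and ratios of -0.51 in Foxp3 and -0.65 in CD8 cells. The mitochondrial chaperonin pair Hspd1 and Hspe1 share a promoter region. Hspd1 had ratios of -0.56, -0.74 and -0.78 in effector CD4, Foxp3 and CD8 cells, and Hspe1 of -0.30, -0.33 and -0.39. Scaled to total UMIs, both were therefore lower in Tc9 in each gate. Hspd1 was past 1.5-fold in Foxp3 and CD8 cells and Hspe1 in none. Thinned to 2000 UMIs, Hspe1 had -0.08 in Foxp3 and -0.15 in CD8 cells. The TMM shift of -0.30 in effector CD4 cells was as large as the Hspe1 ratio there. It was larger than the effector CD4 ratios of Dnaja1 (-0.08) and Dnajb4 (-0.28). The Hspd1 call was lost in Foxp3 cells when thinned (-0.35) and without haemoglobin barcodes (-0.37), and in CD8 cells with equal weight per barcode (-0.32), when thinned (-0.43) and in barcodes free of the other cells' markers (-0.20). The J-domain proteins, which hand clients to HSP70, stayed within 1.5-fold: Dnajb1 ranged from -0.42 to -0.22, Dnaja1 from -0.08 to 0.29 and Dnajb4 from -0.41 to 0.51. Bag3, an HSP70 partner in protein disposal, ranged from -0.48 to 0.02.

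The small heat shock gene Hspb1 had 0.384 CPM in Tc9 and 76.0 CPM in Tc1 effector CD4 cells. That Tc1 level came from 280 UMIs on 11 barcodes, 137 of them on 1 barcode. Hspb1 stood at 152 CPM in Tc1 melanoma cells and 65.4 CPM in Tc1 macrophages. In the Foxp3 gate it was under 10 CPM in both libraries (1.85 in Tc9 and 3.54 in Tc1). The share of its Tc1 T cell UMIs that came from other cells was not tested.

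**Figure D2:**
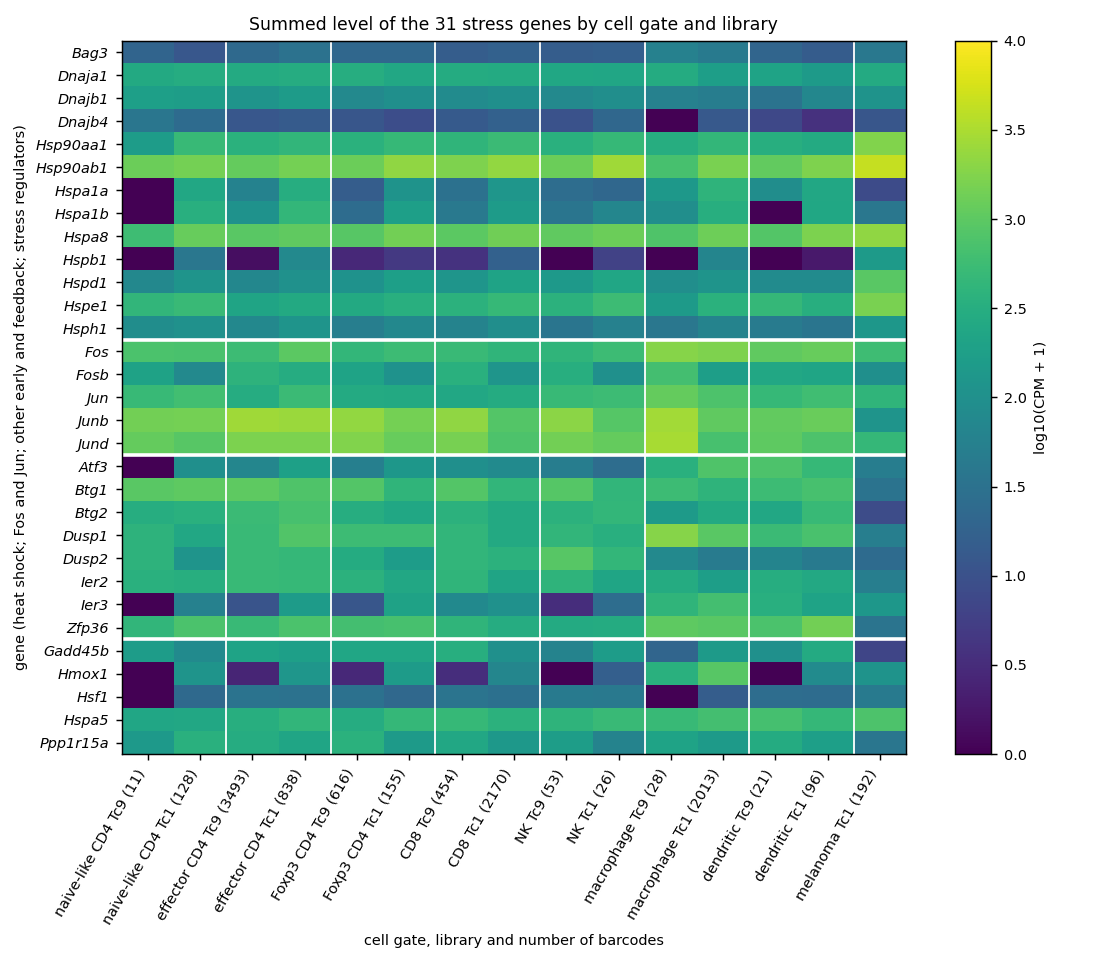
Level of each of the 31 genes (rows, in 4 groups set apart by white lines) in each cell gate and library (columns, barcodes in parentheses), as log10 of CPM + 1 on the colour scale. Hspa1a, Hspa1b, Hspb1, Hmox1 and Ier3 are darker in Tc9 than in Tc1 effector CD4 cells, and the melanoma column is bright for Hsp90aa1, Hsp90ab1, Hspd1 and Hspe1 and darkest for Gadd45b, Hspa1a and Btg2.

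The Fos and Jun sum took another course, with the difference between libraries changing from gate to gate. Effector CD4 cells had 5532 CPM in Tc9 and 5901 CPM in Tc1, a log2 ratio of -0.09 (-0.11 to -0.07). This small ratio was 0.21 with TMM scaling, 0.08 relative to the median gene and 0.07 in barcodes free of the other cells' markers, so its sign depended on the scaling and on the barcodes kept. Foxp3 cells had 4913 CPM in Tc9 and 3531 CPM in Tc1 (0.48), and CD8 cells 4734 CPM in Tc9 and 2452 CPM in Tc1 (0.95). The CD8 ratio was 1.06 without the barcodes of the shared receptor and 1.01 in barcodes free of the other cells' markers.

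Within this family, Junb and Jund made up most of the sum in the compared gates. In effector CD4 cells their summed log2 ratio was 0.07, against -0.55 for Fos, Fosb and Jun together. In Tc1 macrophages Fos, Fosb and Jun held more (2590 against 1760 CPM), as in Tc1 melanoma cells (1075 against 575 CPM). Junb, a Jun protein induced by T cell activation, had 2672 CPM in Tc9 and 2467 CPM in Tc1 effector CD4 cells, 2261 and 1455 CPM in Foxp3 cells, and 2134 and 858 CPM in CD8 cells (log2 ratios 0.12, 0.64 and 1.31). Jund had ratios of 0.00, 0.58 and 0.96 in the same order of gates. Fosb, an early Fos protein, had 345 CPM in Tc9 and 119 CPM in Tc1 CD8 cells (1.54), against 390 and 297 CPM in effector CD4 cells (0.39). Fos and Jun went the other way in effector CD4 cells: Fos had 547 CPM in Tc9 and 972 CPM in Tc1 (-0.83), and Jun 297 and 540 CPM (-0.87). In CD8 cells Fos had a ratio of 0.27 and Jun of -0.18, and in Foxp3 cells -0.32 and 0.10. In effector CD4 barcodes free of the other cells' markers the ratios of Fos and Jun were -0.40 and -0.22, within 1.5-fold. Tc1 macrophages held 1661 CPM of Fos and 755 CPM of Jun.

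Of the 8 early and feedback genes, 5 had Tc9 over Tc1 ratios that were higher at each step from effector CD4 over Foxp3 to CD8 cells. Of all members, 10 of the 30 at 10 CPM in every gate had this order, beside 19.2% of 7797 genes. By Leiden clusters Atf3 and Btg2, which are among the 5, did not have it. Nor did Fos (0.29 in Foxp3 and 0.23 in CD8 cells) and Dnajb1 (-0.62 and -0.67), which are among the 10. Dusp1, a phosphatase that switches off stress kinases, had 516 CPM in Tc9 and 811 CPM in Tc1 effector CD4 cells (-0.65), 542 and 545 CPM in Foxp3 cells (-0.01), and 426 and 268 CPM in CD8 cells (0.67). It was thus lower in Tc9 in effector CD4 cells, within counting error in Foxp3 cells and higher in CD8 cells. Btg1, which restrains cell division, was higher in Tc9 by over 1.5-fold in Foxp3 (864 against 418 CPM) and CD8 cells (863 against 430 CPM), with a ratio of 0.36 in effector CD4 cells. Ier2, an early nuclear gene, had ratios of 0.05, 0.55 and 0.91 in effector CD4, Foxp3 and CD8 cells. Zfp36, which marks cytokine mRNAs for decay, had -0.52, -0.11 and 0.43. Btg2 had -0.35, 0.36 and 0.45. Dusp2, a phosphatase of activated lymphocytes, had 0.20, 0.85 and 0.18. The Foxp3 ratio of Dusp2 was past 1.5-fold, but it was 0.36 with equal weight per barcode, 0.49 thinned to 2000 UMIs, 0.32 by Leiden clusters and 0.57 with free RNA subtracted.

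Atf3 and Ier3 had the lowest ratios of this group in effector CD4 and Foxp3 cells. Atf3, a stress-induced repressor, had 66.5 CPM in Tc9 and 189 CPM in Tc1 effector CD4 cells (-1.51), and Ier3 had 9.79 and 156 CPM (-4.00). In Tc1 macrophages Atf3 stood at 786 CPM and Ier3 at 648 CPM. In effector CD4 barcodes free of the other cells' markers the ratio of Atf3 was -0.19 and that of Ier3 -2.20. In Foxp3 cells the ratio of Atf3 was -1.30 by gates but 0.71 with Leiden clusters in place of gates, and that of Ier3 was -4.22. In CD8 cells they had 0.25 and -0.44, and Atf3 had 3.39 in barcodes free of the other cells' markers. The CD8 ratio of Ier3 was -1.37 without the barcodes of the shared receptor and -1.03 by Leiden clusters, both past 1.5-fold, and 0.19 with free RNA subtracted.

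Of the stress regulators, Hmox1, the haem-degrading enzyme of macrophages, had 1.63 CPM in Tc9 and 123 CPM in Tc1 effector CD4 cells (-6.24), with -6.41 in Foxp3 and -4.83 in CD8 cells. Tc1 macrophages held 898 CPM of it. The top twentieth of Tc1 effector CD4 barcodes held 84.6% of its UMIs, 152 of 455 on 1 barcode. Ppp1r15a, which restarts translation after stress, had 296 CPM in Tc9 and 222 CPM in Tc1 effector CD4 cells (0.41), 363 and 152 CPM in Foxp3 cells (1.25), and 246 and 133 CPM in CD8 cells (0.89). Gadd45b, a stress kinase activator, had 325 CPM in Tc9 and 102 CPM in Tc1 CD8 cells (1.67), and ratios of 0.20 in effector CD4 and 0.03 in Foxp3 cells. Hsf1, the heat shock factor itself, stayed within 1.5-fold (0.04, 0.49 and 0.18). Hspa5, the chaperone of the endoplasmic reticulum, had -0.43, -0.58 and 0.35.

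**Figure D3:**
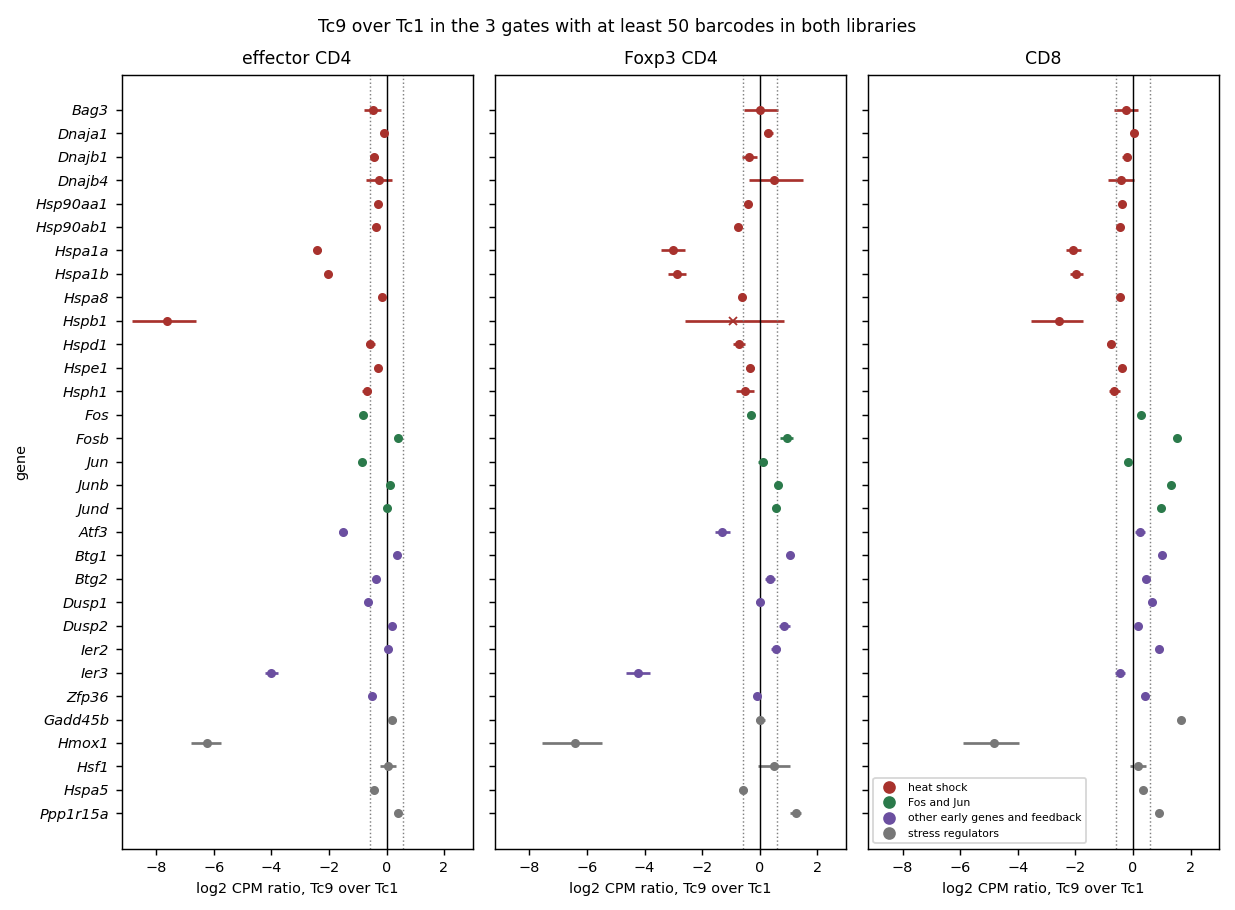
Log2 CPM ratio of Tc9 over Tc1 (horizontal axes) for each gene (rows, coloured by group) in effector CD4, Foxp3 CD4 and CD8 cells, with 95% counting intervals, dotted lines at 1.5-fold and a cross where the gene was under 10 CPM in both libraries. Hspa1a and Hspa1b lie left of the dotted lines in all 3 gates, while Junb, Fosb and Btg1 move right between effector CD4 and CD8 cells.

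The share of members past 1.5-fold was near that of all genes, so the counts alone say nothing particular about the set. In effector CD4 cells 10 of 31 members passed, all 10 lower in Tc9, beside 29.8% of 8317 genes in either direction, 23.2% lower and 6.60% higher. With TMM scaling 6 were lower and 3 higher there, and relative to the median gene 8 were lower and 1 higher. In Foxp3 cells 13 of the 30 members at 10 CPM passed, 8 lower and 5 higher, beside 45.7% of 8731 genes (26.8% lower and 18.9% higher). There 9 were higher and 7 lower with TMM scaling, and 7 were higher and 7 lower relative to the median gene. In CD8 cells 14 of 31 passed, 6 lower and 8 higher, beside 39.2% of 8504 genes (24.7% lower and 14.5% higher). By group, the heat shock genes had 0 higher and 4, 5 and 5 lower in the 3 gates, and the Fos and Jun genes 0, 2 and 3 higher with 2, 0 and 0 lower. Hspa1a, Hspa1b and Hmox1, 3 of 30 members, were lower past 1.5-fold in all 3 gates, beside 11.2% of 7797 genes, and no member was higher in all 3, beside 3.44%. In CD8 barcodes free of the other cells' markers Hmox1 was under 10 CPM in both libraries, with a ratio of -2.24.

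Under at least 1 other setting, 6 of the 10 calls in effector CD4 cells, 7 of the 13 in Foxp3 cells and 5 of the 14 in CD8 cells were lost. In effector CD4 cells they were Atf3 (ratios from -1.62 to -0.19), Dusp1 (-0.76 to -0.35), Fos (-0.96 to -0.40), Hspb1 (-8.65 to -1.53), Hsph1 (-1.29 to -0.30) and Jun (-0.97 to -0.22). In Foxp3 cells they were Atf3 (-1.76 to 0.71), Dusp2 (0.32 to 1.11), Fosb (0.54 to 1.26), Hsp90ab1 (-0.78 to -0.54), Hspa8 (-0.70 to -0.40), Hspd1 (-1.02 to -0.35) and Junb (0.43 to 0.77). In CD8 cells they were Dusp1 (0.56 to 1.32), Hmox1 (-5.48 to -2.24), Hspd1 (-1.01 to -0.20), Hsph1 (-0.98 to -0.39) and Ppp1r15a (0.57 to 1.04). Of these members, Atf3 in Foxp3 cells changed sign.

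Related genes from 4 further lists gave a wider view. Of all genes at 10 CPM in effector CD4, Foxp3 and CD8 cells, 6.60%, 18.9% and 14.5% were higher in Tc9. The lower ones made up 23.2%, 26.8% and 24.7%. Of 35 other early response genes, 33, 32 and 33 were at 10 CPM, and 13, 20 and 22 of them were higher in Tc9 and 5, 4 and 2 lower in effector CD4, Foxp3 and CD8 cells. Their median log2 ratios were 0.40, 0.75 and 1.25, against -0.17, -0.07 and -0.12 over all genes. The largest ratios in effector CD4 cells were those of Cebpb (-1.88), Klf10 (1.46) and Egr3 (1.40). Of 39 other chaperones, 34, 35 and 34 were at 10 CPM. Of these 1, 1 and 3 were higher and 6, 12 and 8 lower, with medians of -0.19, -0.36 and -0.25. Their lower shares (17.6%, 34.3% and 23.5%) were under those of all genes in effector CD4 and CD8 cells and above in Foxp3 cells. Cryab, Serpinh1 and the chaperonin subunit Cct6a had the largest effector CD4 ratios among them (-4.08, -2.34 and 1.22). The unfolded protein and integrated stress list had 16, 17 and 18 genes at 10 CPM. Of these 9, 8 and 3 were lower (56.25%, 47.1% and 16.7%) and 0, 1 and 4 higher, led by Ddit4 (-2.27), Sdf2l1 (-1.51) and Pdia6 (-1.23). The oxidative stress list had 8, 8 and 9 lower and none of its 13, 13 and 12 measured genes higher, led by Slc7a11 (-5.88), Srxn1 (-3.76) and Mt1 (-3.01). Whether RNA of other cells carried the lower values was not tested.

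Across gates, heat shock and Fos and Jun levels ran in largely opposite orders. In Tc1 the heat shock sum was highest in melanoma cells (11654 CPM), followed by NK (5702), CD8 (5618), Foxp3 (5289), naive-like CD4 (4995), macrophage (4882), effector CD4 (4750) and dendritic cells (4735). Among neighbours in this order, the intervals overlapped for NK with CD8, Foxp3 with naive-like CD4, naive-like CD4 with macrophage, and effector CD4 with dendritic cells. The Fos and Jun sum in Tc1 was highest in effector CD4 cells (5901 CPM), followed by macrophage (4350), dendritic (3949), naive-like CD4 (3745), Foxp3 (3531), NK (3228), CD8 (2452) and melanoma cells (1650). Here dendritic with naive-like CD4, naive-like CD4 with Foxp3, and Foxp3 with NK cells overlapped. In the Tc9 gates of at least 50 barcodes the heat shock sum ran from CD8 (4059) over NK (3645) and Foxp3 (3423) to effector CD4 cells (3395), and the Fos and Jun sum from effector CD4 (5532) over Foxp3 (4913) and CD8 (4734) to NK cells (4686). In the heat shock order the intervals overlapped for NK with Foxp3 and Foxp3 with effector CD4 cells, and in the Fos and Jun order for CD8 with NK cells. Heat shock UMIs per Fos and Jun UMI numbered 0.61 in Tc9 and 0.80 in Tc1 effector CD4 cells, 0.70 and 1.5 in Foxp3 cells, and 0.86 and 2.29 in CD8 cells, with 7.06 in Tc1 melanoma cells. Over the 11 gate and library points with at least 50 barcodes, log2 heat shock and log2 Fos and Jun levels had a Pearson r of -0.89, and -0.70 over 10 points without melanoma. Points of 1 library share its depth and free RNA, and in a CPM a high sum lowers the rest, so this is a description.

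Melanoma cells, found in Tc1 only, held 1730 CPM of Hsp90aa1, 4530.5 CPM of Hsp90ab1, 940 CPM of Hspd1 and 1540 CPM of Hspe1. They held 7.16 CPM of Hspa1a and 37.3 CPM of Hspa1b, under the Tc1 effector CD4 levels. The inducible HSP70 genes gave 0.38% of their heat shock UMIs, and Hspa8 with Hsp90ab1 gave 57.3%. Junb stood at 117 CPM in these cells and Btg2 at 7.63 CPM.

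Genes outside the set were ranked by likeness of their log2(CPM + 1) profile over those 11 points. The most like the heat shock sum were Ntmt1, Mbd3, Atp5b, Emc4 and Atp5g2 (Pearson r 0.98 to 0.99 of 11073 genes), a ranking that the melanoma point can dominate. The most like the Fos and Jun sum were Egr1 (0.95), Fosl2 (0.95), Fhod1 (0.94), Ccdc9 (0.94) and Rap2c (0.93). Over the 7 Tc1 points alone, Mbd3 and Ntmt1 were among the first 5 for heat shock, and Fosl2, Fhod1 and Ccdc9 for Fos and Jun. These 7 points are part of the 11 and include melanoma, so this is no independent check of the ranking.

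Whether the same cells were high in both programmes was read from barcodes thinned to 2000 UMIs. A barcode was high in heat shock at 10 or more UMIs of the 13 genes and high in Fos and Jun at 13 or more UMIs of the 5 genes, the upper quartiles over all gated barcodes. In effector CD4 cells 306 of 3425 Tc9 barcodes were high in both, 8.93% (8.0 to 9.94%), and 114 of 787 Tc1 barcodes, 14.5% (12.1 to 17.1%). The difference was -5.55 percentage points (-8.37 to -2.96). In Foxp3 cells 7.20% in Tc9 and 3.97% in Tc1 were high in both, a difference of 3.23 points (-1.64 to 6.66), which is within counting error. In CD8 cells the shares were 6.64% in Tc9 and 2.78% in Tc1, a difference of 3.86 points (1.60 to 6.64). With quartiles set within each gate and library, the differences became 0.34 points in effector CD4 and -2.44 points in CD8 cells. In effector CD4 cells 163 Tc9 and 49 Tc1 barcodes sat exactly at the heat shock limit and 222 and 58 were 1 UMI below it, with 175 and 39 at the Fos and Jun limit and 167 and 22 just below.

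Inside a gate and library, the share high in both was set against the product of the 2 single shares. The share high in both divided by the product of the 2 single shares was 1.27 in Tc9 and 1.02 in Tc1 effector CD4 cells, 1.38 and 0.79 in Foxp3 cells, and 0.80 and 1.07 in CD8 cells. The interval of the share lay above the product in Tc9 effector CD4 cells. It also did so in Tc9 Foxp3 cells, by a small margin (5.28 against 5.23%), and held the product in the other 4. The product comes from the same barcodes and was taken as fixed. These intervals therefore do not measure the error of the link between the 2 sums. With quartiles set within each gate and library the effector CD4 ratios were 1.25 in Tc9 and 1.28 in Tc1, so the gap between the libraries depended on the limits chosen. Over all settings the ratio ran from 1.08 to 1.67 in Tc9 and 1.02 to 1.33 in Tc1 effector CD4 cells. It ran from 1.09 to 3.68 in Tc9 and 0 to 1.12 in Tc1 Foxp3 cells, and from 0.78 to 0.98 in Tc9 and 0.91 to 2.5 in Tc1 CD8 cells. The values 3.68, 0 and 2.5 rested on few barcodes high in both, 11 of 611, 0 of 151 and 3 of 120. Per-barcode correlations of the sums were 0.17 in Tc9 and 0.06 in Tc1 effector CD4 cells, 0.08 and -0.09 in Foxp3 cells, and -0.13 and 0.02 in CD8 cells. In Tc1 melanoma cells 1 of 161 barcodes was high in both, 0.62% (0.02 to 3.41%). There 84.5% were high in heat shock and 2.48% in Fos and Jun, and their product of 2.10% lay within that interval.

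**Figure D4:**
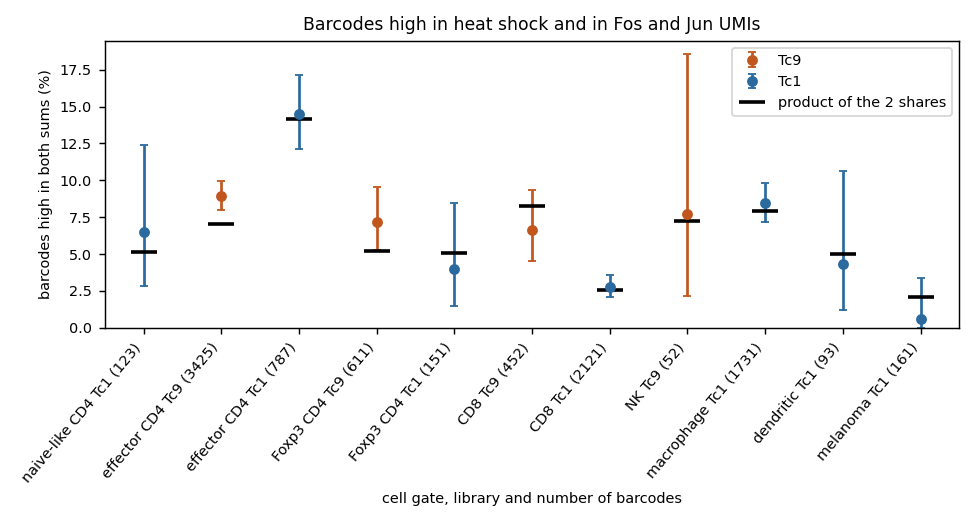
Percent of barcodes high in both the heat shock and the Fos and Jun sums (vertical axis, points with exact 95% binomial intervals) in each gate and library with at least 50 barcodes of 2000 UMIs, with black bars for the product of the 2 single shares. In Tc9 effector CD4 cells the point, 8.93%, lies above its bar, 7.05%.

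The 8 early and feedback genes summed to 9.57 UMIs per 2000 in Tc9 effector CD4 barcodes high in both, 9.32 in those high in Fos and Jun only, 7.17 in those high in heat shock only and 6.39 in those high in neither. In Tc1 these sums were 12.9, 10.9, 6.99 and 6.86 UMIs. As examples from this list, in Tc9 effector CD4 cells Dusp1 averaged 1.69 UMIs per 2000 in barcodes high in both, 1.45 in those high in Fos and Jun only, 0.89 in those high in heat shock only and 0.77 in those high in neither. Zfp36 averaged 1.58, 1.56, 0.91 and 0.71 in the same order. In Tc1 effector CD4 cells Dusp1 averaged 2.96, 2.15, 1.27 and 1.03 UMIs, and Zfp36 2.46, 1.98, 0.99 and 0.89. The 39 other chaperones summed to 5.88 UMIs in Tc9 barcodes high in both and 5.41 in those high in neither, and to 6.30 and 5.97 in Tc1. Median depth was 5010 UMIs in Tc9 effector CD4 barcodes high in both and 5515 in the rest, and 3274 and 3574 in Tc1.

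Between single genes, heat shock genes and Fos and Jun genes had higher median correlations within their own group than across the groups in effector CD4 barcodes. Hspa1a and Hspa1b had a Pearson r of 0.53 in Tc9 and 0.54 in Tc1, and Fos and Fosb 0.41 and 0.37. Hspa1b and Hsph1 reached 0.28 in Tc9 and 0.27 in Tc1. Median r was 0.05 in Tc9 and 0.09 in Tc1 over the 78 pairs within heat shock, and 0.17 and 0.23 over the 10 pairs within Fos and Jun. Over the 65 pairs across the groups it was 0.03 in Tc9 and 0.02 in Tc1. Hmox1 correlated with Hspb1 (0.37) and Ier3 (0.34) in Tc1 effector CD4 cells. Large shares of the Hspb1 and Hmox1 UMIs there sat on 1 barcode, as given above, so these values can rest on few barcodes. Tc1 macrophages also held these 3 genes, and the part of RNA of other cells in the correlations was not tested. In Tc1 macrophages the median r was 0.35 within Fos and Jun, 0.10 within heat shock and 0.01 across. Counts this sparse lower r, and most for genes with few UMIs. The genes of the groups differ in level, so neither the strength nor the order of these values is free of it.

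**Figure D5:**
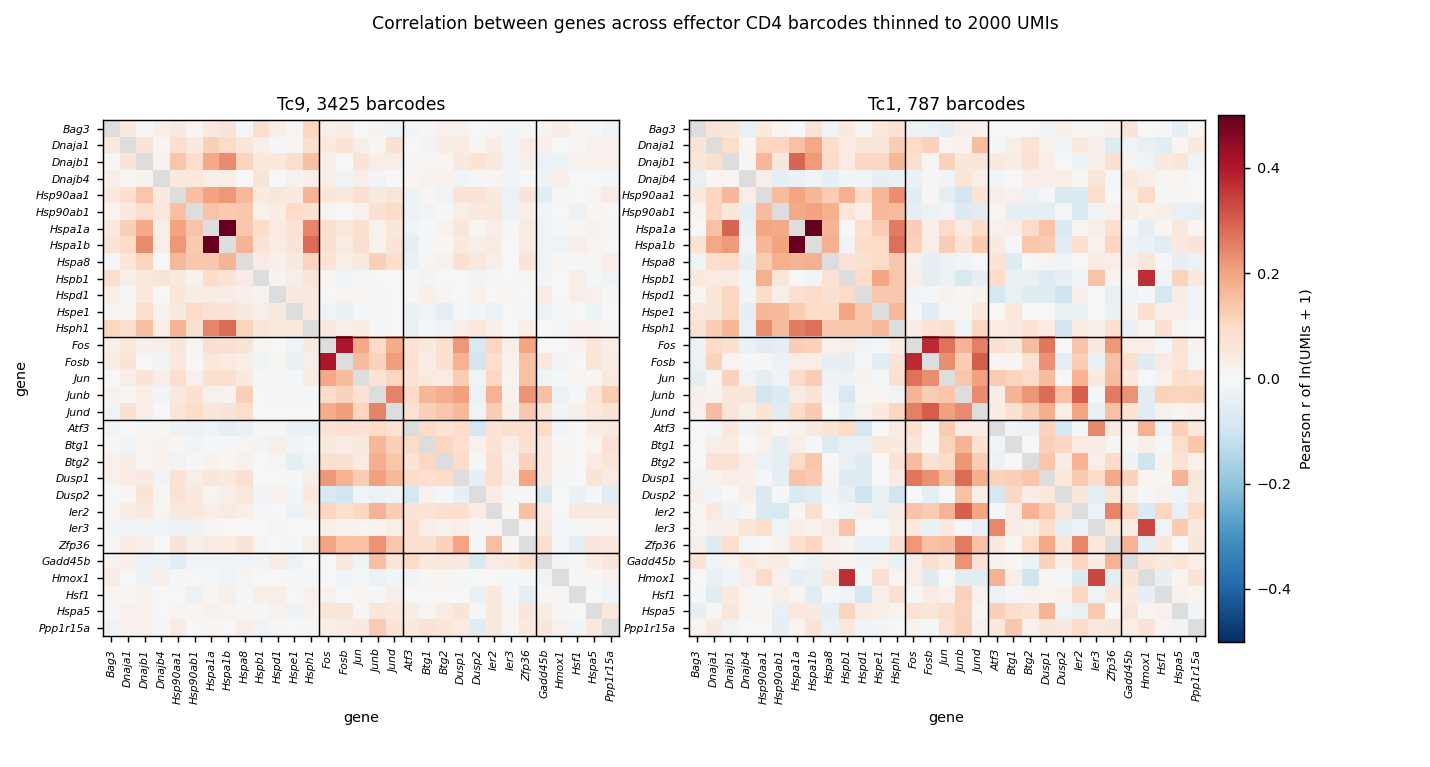
Pearson r of ln(UMIs + 1) between the 31 genes (both axes, groups set apart by black lines) across effector CD4 barcodes thinned to 2000 UMIs, with Tc9 on the left and Tc1 on the right. Blocks of positive r stand on the diagonal for heat shock and for Fos and Jun, the second of them extending to Dusp1 and Zfp36, and the block between the groups is near 0 (median 0.03 in Tc9 and 0.02 in Tc1).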

How the data were processed

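Single-cell RNA was counted by the authors with Cell Ranger 7.0.0 on mm10 (GRCm38), per the submitters' processing notes, and deposited as counts of UMIs per gene and barcode in filtered matrices. Receptor contigs with their UMI counts, as deposited by the authors, served only to find beta chains present in both libraries. A barcode was kept if it had 500 or more genes and no more than 10% of its UMIs from mitochondrial genes. This left 8204 barcodes in Tc9 and 11933 in Tc1, of which 4676 and 5618 fell into a gate. Gates used marker UMIs, and their numeric limits were set with the data in hand. Doublets were not called, and gates that need T cell markers limit macrophage and melanoma UMIs.

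The members and all gene lists were chosen with earlier results of these data known. All 31 members are named, with up to 3 genes per further list by the size of the effector CD4 ratio. Poisson intervals are exact for sums, conditional for ratios and Clopper-Pearson for shares. Differences of shares combine the Clopper-Pearson limits of both shares by the formula of Newcombe, who used other limits. With 1 library per group no p-value was computed, and a gene with at least 10 CPM in a library counted as higher or lower from 1.5-fold. Ratios were tested on simulated data. Versions were Python 3.11.15, numpy 2.4.6, scipy 1.17.1, scanpy 1.11.5 for the cluster alternative, and edgeR 4.0.16 for TMM factors. Promoter windows are from RefSeq on GRCm38.p6. The 3 mice of a pool were not told apart.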

Additional observations from a re-analysis of the deposited data

Results flagged for a closer look

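Dusp1 passed 1.5-fold in opposite directions in 2 cell types. Its log2 ratio of Tc9 over Tc1 was 0.67 in CD8 cells (426 CPM in Tc9 and 268 CPM in Tc1) and -0.65 in effector CD4 cells (516 CPM in Tc9 and 811 CPM in Tc1). The difference between the cell types was not tested, since each group had 1 library. In barcodes free of macrophage, melanoma, class II and red cell markers the ratios were 1.32 in CD8 and -0.51 in effector CD4 cells. With TMM scaling the effector CD4 ratio was -0.35, within 1.5-fold, and it was also within 1.5-fold relative to the median gene (-0.48), by Leiden clusters (-0.50) and in the barcodes free of those markers. The CD8 ratio was 0.56 by Leiden clusters, within 1.5-fold.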

How the results depend on the processing

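No paired analysis was possible because each group had 1 RNA library. Settings are the planned ones unless named as added. The heat shock ratio kept its negative sign in all 3 gates under every setting run. In effector CD4 cells its log2 value was -0.19 with TMM scaling, -0.31 relative to the median gene, -0.42 with equal weight per barcode, -0.43 thinned to 2000 UMIs, -0.31 without Hspa1a and Hspa1b and -0.78 without Hspa8 and Hsp90ab1. In Foxp3 cells it was -0.49 with TMM, -0.56 relative to the median gene, -0.47 with equal weight, -0.44 thinned, -0.57 by Leiden clusters, -0.55 without haemoglobin barcodes, -0.56 without Hspa1a and Hspa1b and -0.49 without Hspa8 and Hsp90ab1. In CD8 cells it was -0.43 with TMM, -0.35 relative to the median gene, -0.24 with equal weight, -0.23 thinned, -0.51 by clusters, -0.51 without haemoglobin barcodes, -0.58 without shared receptor barcodes, -0.40 with free RNA subtracted, -0.42 without Hspa1a and Hspa1b and -0.50 without Hspa8 and Hsp90ab1. The Fos and Jun ratio in effector CD4 cells was 0.21 with TMM, 0.081 relative to the median gene, -0.19 with equal weight, -0.18 thinned, -0.053 by clusters, -0.064 without haemoglobin barcodes and -0.13 with free RNA subtracted. In Foxp3 cells it was 0.61 with TMM, 0.54 relative to the median gene, 0.43 thinned, 0.35 by clusters and 0.42 with free RNA subtracted. In CD8 cells it was 0.99 with TMM, 1.07 relative to the median gene, 0.92 with equal weight, 0.91 thinned, 0.88 with 2 coreceptor UMIs, 0.77 by clusters, 1.06 without shared receptor barcodes and 0.92 with free RNA subtracted. Members past 1.5-fold in Foxp3 cells numbered 8 when thinned, against 13, and 18 with 2 coreceptor UMIs. The difference in barcodes high in both was -2.34 points in effector CD4 cells with the highest 10% in place of the quartile, 0.34 with quartiles within each gate and library, -8.56 at 1000 UMIs and -10.1 without Hspa8 and Hsp90ab1. In CD8 cells it was 0.29 with the highest 10% in place of the quartile, -2.44 with quartiles within each gate and library and 7.62 at 1000 UMIs. The within-gate quartiles are set anew in each library, which takes away differences in level; other causes were not tested. An alternative added after seeing the data kept only barcodes with no UMI of the macrophage, melanoma, class II or red cell markers. It gave heat shock ratios of -0.31 in effector CD4 and -0.30 in CD8 cells, Fos and Jun ratios of 0.067 and 1.01, and a difference high in both of -10.5 points in effector CD4 cells. It was not run in Foxp3 cells, where 3 Tc1 barcodes remained. Free RNA was estimated at 24.6% of T cell UMIs in Tc9 and 6.49% in Tc1. The markers behind the estimate stood at 104 CPM in the whole Tc9 library, against 9058 CPM in Tc1, so the subtraction is unsure in Tc9.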
